A study of Daphnia magna with 12 samples.

Results

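In RNA of whole Daphnia magna females, 216 gene models were higher in the same 4 libraries than in the other 8. The 4 were young replicates 2 and 4 and old reproducing replicates 1 and 3. Daphnia magna is a freshwater crustacean whose females reproduce clonally, and all 12 libraries came from females of 1 clone, GB-EL75-69, kept singly in 20 mL of ADaM medium at 20 °C and fed the green alga Scenedesmus acutus at 100000 cells per mL each day. By their labels the libraries form 3 groups of 4: reproducing females aged 20 days (young), females aged 130 to 170 days that were reproducing (old reproducing), and equally old females no longer reproducing (old non-reproducing). Females in no group received a treatment. The tissue label reads whole body, somatic, and nothing says what was removed or how many females went into a library. P-values therefore measure the spread between libraries, and with a single clone they cover no genetic variation.

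The members were chosen from the measured levels. Level is given as counts per 1000000 (CPM), the count of a gene model divided by the library total and multiplied by 1000000. A member has a mean of at least 5 CPM over the 12 libraries, a level in each of the 4 libraries above that in all the other 8, and a mean over the 4 that is at least 1.5 times the mean over the 8. Of 21456 gene models, 6512 reached 5 CPM, 220 of these were separated in this way, and 216 (3.32% of the 6512) also passed the ratio limit. The 4 libraries are not a group of the study: they are 2 of the 4 young and 2 of the 4 old reproducing libraries, grouped by these levels. That the members are high in them is thus a description and is not tested. All 4 came from reproducing females, but so did young replicates 1 and 3 and old reproducing replicates 2 and 4, which were on the low side. Reproduction as labelled therefore does not describe the split.

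In daphnids an adult female moults repeatedly and can lay a new clutch into the brood pouch at each moult, where the embryos develop until release. Yolk proteins are made outside the ovary, largely in the fat body, and the cuticle is rebuilt at every moult, so ovary, fat body and epidermis follow this cycle. The labels do not give the point of the cycle at which each female was taken. The gene models carry only identifiers of the gene prediction, none of which matched the table of RefSeq gene names. Neither the functions of the members nor markers of the labelled tissue can therefore be described, and at most 4 identifiers are given.

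Library totals ranged from 16015869 to 25659597 counts, from 18476780 to 25659597 in the 4 libraries and from 16015869 to 25260519 in the other 8. Reads were found for 15361 to 16490 gene models in the 4 libraries and for 14326 to 16125 in the 8. The 10 most abundant genes held 17.2 to 23.4% and 11.4 to 22.2% of the counts. These ranges overlap. Within the young group, totals and gene models with reads did not. Young replicates 2 and 4 had 18937220 and 25659597 counts and 15422 and 15921 gene models. Young replicates 1 and 3 had 16921813 and 17754334 counts and 14337 and 14326 gene models. In the old reproducing group both overlapped. Gene models were 15361 and 16490 in replicates 1 and 3, against 16125 and 15084 in replicates 2 and 4. How this relates to the split was not tested. The members were well covered in the 4 libraries, where the rule makes them high. The lowest count of a member in any of these was 70, and the median over members of the lowest of the 4 counts was 173.5. Over all 12 libraries the median of the lowest count was 48. Only 6 members had 3 counts or fewer in some library, and 5 of them had a library with 0.

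Together the members were a small part of the RNA. Their levels summed to 2079, 12985, 1784 and 6709 CPM in young replicates 1 to 4. In old reproducing replicates 1 to 4 the sums were 3920, 2173, 4378 and 1514 CPM, and in old non-reproducing replicates 1 to 4 they were 1378, 1508, 1457 and 1169 CPM. The highest sum, in young replicate 2, was 1.30% of that library's counts, and the lowest, in old non-reproducing replicate 4, was 0.117%. By labelled group (SD, n = 4 each) the sum averaged 5889 ± 5240 CPM for young females, 2996 ± 1371 CPM for old reproducing ones and 1378 ± 149.6 CPM for those that had stopped. The overlap of the young and old reproducing sums follows from the rule, which takes 2 high and 2 low libraries from each of these groups. All 4 old non-reproducing libraries are low by the rule, which caps their sums and so limits how far these can differ. Their small SD is not read as a likeness. Within single members, the SD of log2 CPM over these libraries had a median of 0.51, against 0.37 over all genes tested. In whole-body RNA, more cells of a kind and more RNA per cell cannot be told apart.

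**Figure D1:**
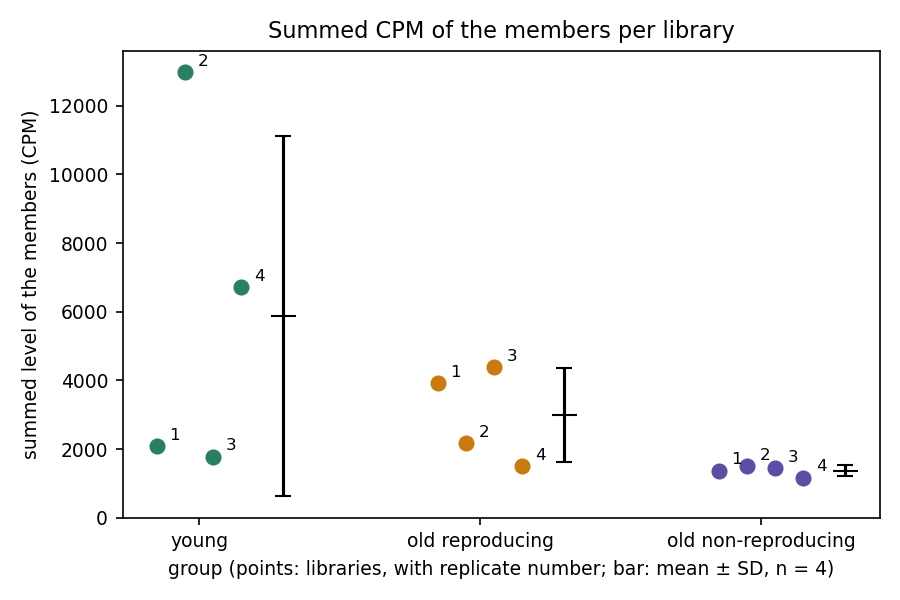
Summed level of the 216 members in each library, in CPM, by labelled group; points are libraries with their replicate number, and bars are the mean ± SD (n = 4). Young replicate 2 lies highest at 12985 CPM, and the 4 old non-reproducing libraries lie between 1169 and 1508 CPM.

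The rule fixes no order among the 4 libraries, and they were ordered alike in most members. Young replicate 2 was the highest of all 12 libraries in 208 of 216 members (96.3%), against 10.4% of the 6512 genes of at least 5 CPM. The rule leaves only the 4 libraries to be highest in a member, so the 10.4% is not a matching share. Of the 6512 genes, 6.27% were highest in young replicate 4, 1.61% in old reproducing replicate 1 and 7.43% in old reproducing replicate 3. Young replicate 4 was highest in 4 members, old reproducing replicate 1 in 3 and old reproducing replicate 3 in 1. Both young libraries lay above both old reproducing ones in 186 members, and the reverse held in 2. The full order of young replicate 2, young replicate 4, old reproducing replicate 3 and old reproducing replicate 1 was seen in 163 members, and old reproducing replicate 1 was the lowest of the 4 in 179. This library therefore set the distance to the other 8 in most members. For these orders the share over all genes was not computed, and they are not read as a trait of the members. All members share the same 4 libraries, so their counts are not independent of each other.

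The steps between the 4 libraries differed in how much they varied over members. Young replicate 2 had 1.78 times the CPM of young replicate 4 in the median member (interquartile range 1.52 to 2.09). Old reproducing replicate 3 had 1.24 times the CPM of old reproducing replicate 1 (1.09 to 1.44). The step from old reproducing replicate 3 to young replicate 4 varied more, at 1.59 times (1.21 to 2.14). Taking young replicate 2 as 100%, the median member stood at 56.2% in young replicate 4, at 32.0% in old reproducing replicate 3 and at 25.6% in old reproducing replicate 1. In the 8 other libraries the medians ran from 8.10% in old non-reproducing replicate 4 to 16.2% in old reproducing replicate 2, with an interquartile range of 5.64 to 18.1% in old reproducing replicate 4. Over the 6512 genes of at least 5 CPM, the corresponding medians lay between 90.8 and 124% in the 11 libraries other than young replicate 2. The rule requires the 8 other libraries to lie below young replicate 2 in every member. The contrast with all genes is thus set in part by the choice of members.

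**Figure D2:**
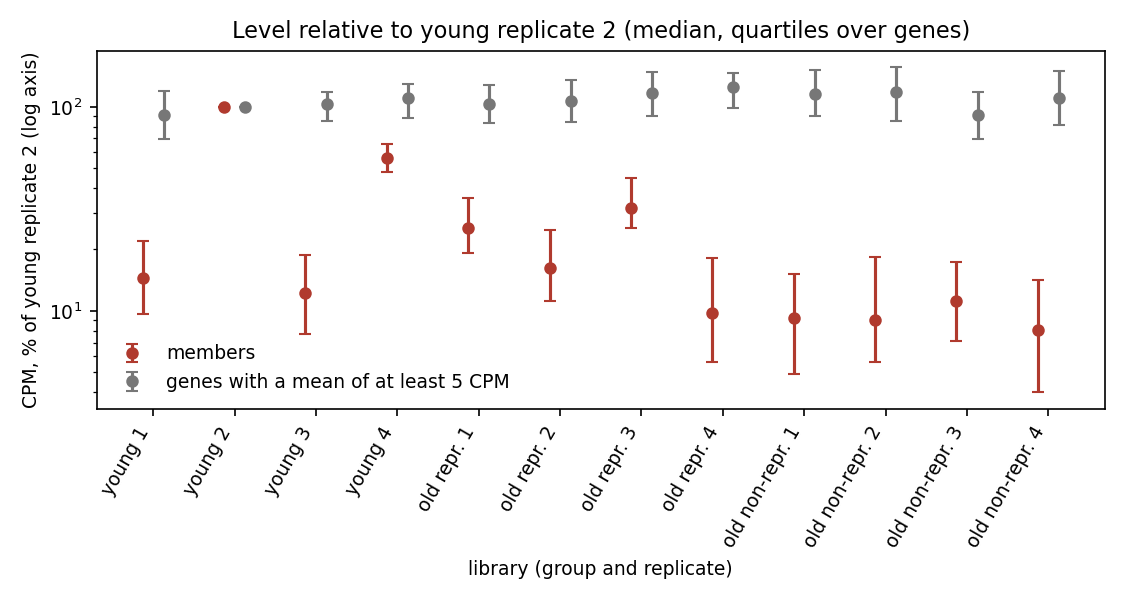
CPM in each library as a percentage of that in young replicate 2, on a log axis; points are medians and bars quartiles over the 216 members (red) or the 6512 genes averaging 5 CPM or more (grey). The members fall to 56.2% in young replicate 4 and to between 8.10 and 32.0% in the other libraries, whereas the medians of all such genes stay between 90.8 and 124%. The rule requires 8 of the libraries to lie below young replicate 2 in every member, so this contrast is set in part by the choice of members.

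Each member was also set against the median profile of the other members, as log2(CPM + 0.5) centred on the member's mean. Pearson's r over the 12 libraries had a median of 0.961 over members and ranged from 0.537 to 0.995. It was over 0.95 in 135 members and over 0.9 in 180. These correlations describe how alike the profiles are; the members were selected for a common split of the libraries, which by itself raises r, and they share the 12 libraries. The lowest r belonged to the most abundant member.

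**Figure D3:**
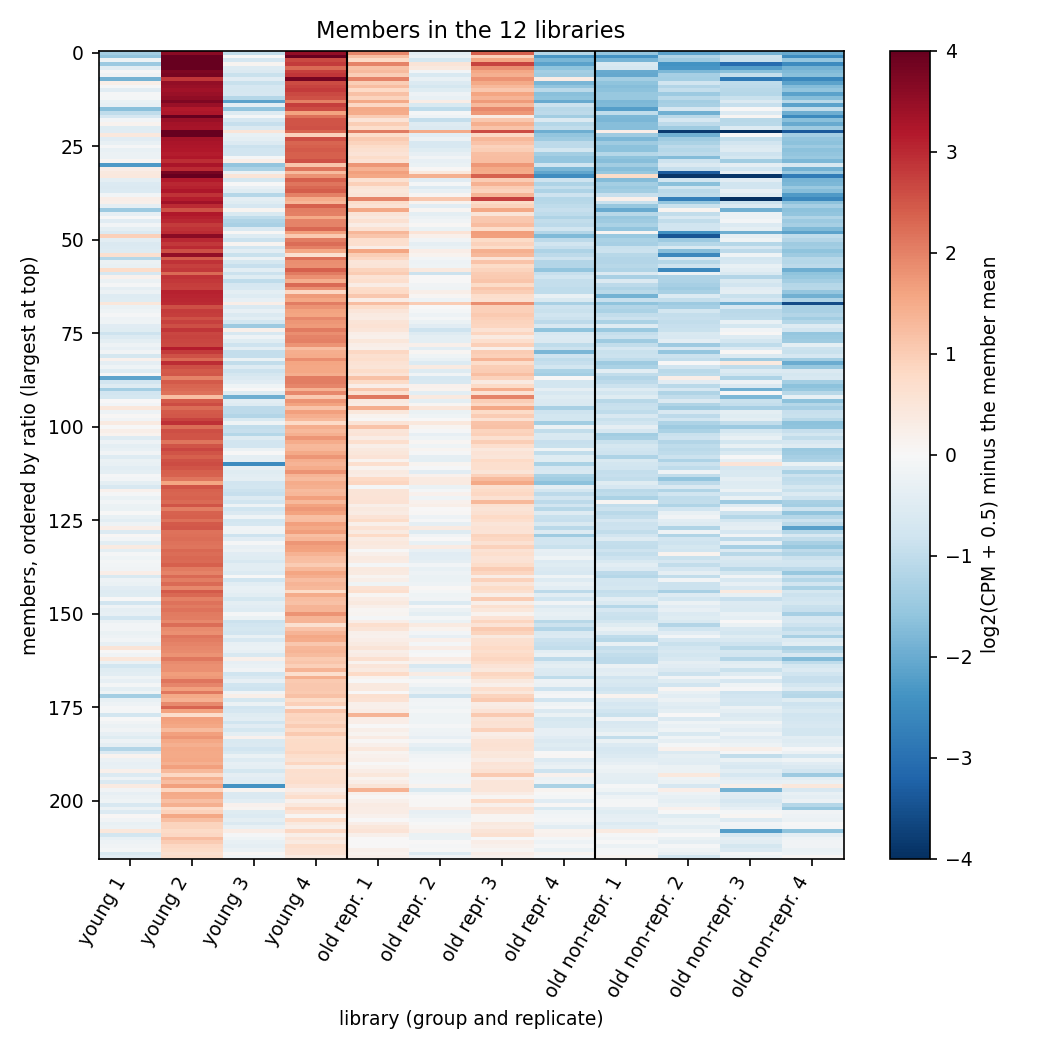
Level of each of the 216 members (rows, largest ratio at the top) in the 12 libraries (columns), as log2(CPM + 0.5) minus the member's mean; red is above and blue below that mean. Young replicate 2 is the highest library in 208 rows, and the same 4 columns are red down most of the map.

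Among the 8 other libraries, which the rule leaves free to vary, old reproducing replicate 2 was the highest in 95 members and young replicate 1 in 59. Old non-reproducing replicate 4 was the lowest of all 12 libraries in 82 members. The mean over the 4 remaining libraries of reproducing females was above that over the 4 old non-reproducing ones in 193 of 216 members. Library by library, old reproducing replicate 2 lay above every old non-reproducing library in 160 members (74.1%, against 9.72% of genes of at least 5 CPM), young replicate 1 in 124 (57.4%, against 11.99%) and young replicate 3 in 81 (37.5%, against 10.8%). Old reproducing replicate 4 did so in 44 members (20.4%, against 30.9%). All 4 together lay above all old non-reproducing libraries in 22 members and below them in 0. For these counts and the 193 above, the share over all genes was not computed, and they are not read as a trait of the members. The shares and counts given here describe the libraries after a choice of members that required low values in all 8.

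The contrast within a group was larger in young than in old reproducing females. The mean of young replicates 2 and 4 was 5.57 times that of young replicates 1 and 3 in the median member (interquartile range 4.04 to 8.31). The mean of old reproducing replicates 1 and 3 was 2.23 times that of replicates 2 and 4 (1.71 to 2.88). The young ratio exceeded the old one in 214 of 216 members. The rule requires both ratios to be above 1 and sets no order between them. For this count the share over all genes was not computed. The standard deviation of log2 CPM within a group (prior count 2) had a median over members of 1.38 for young females against 0.41 over all genes tested. For old reproducing females these medians were 0.78 against 0.30, and for old non-reproducing females, all low by the rule, 0.51 against 0.37.

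The ratio of the mean over the 4 libraries to the mean over the other 8 had a median of 4.58 over members (interquartile range 3.31 to 6.59) and ranged from 1.51 to 45.4. It lay between 1.5 and 3 in 44 members, between 3 and 5 in 75, between 5 and 10 in 73 and at 10 or more in 24. Members with a larger ratio were not higher in every one of the 4 libraries. In the class of 10 or more, the median level was 54.3 CPM in young replicate 2 and 9.12 CPM in old reproducing replicate 1, and in the class of 1.5 to 3 it was 22.97 and 9.34 CPM. As a fold difference, though not in CPM, the classes differed more on the low side, with 0.723 and 5.48 CPM in old non-reproducing replicate 4. The classes are defined by the ratio of high to low libraries, so differences of this kind are partly built in.

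The margin between the lowest of the 4 and the highest of the 8 was narrower than these ratios, at 1.34-fold in the median member (interquartile range 1.14 to 1.69) and 6.61-fold at most. At its narrowest it was 277.71 against 277.66 CPM, in the most abundant member, and the next narrowest was 8.92 against 8.92 CPM to 3 digits. The nearest genes that failed on this condition alone had 874 against 877 CPM and 6.33 against 6.38 CPM, and 273 genes passed the abundance and ratio limits but not the separation. Nearest to the ratio limit, members had ratios of 1.51, 1.57 and 1.61, and separated genes just outside it had 1.44, 1.42 and 1.40. Nearest to the abundance limit, members had means of 5.04 and 5.07 CPM and genes left out had 4.98 and 4.93 CPM. Which genes are members near these edges is thus a matter of the limits.

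The largest ratio, 45.4, belonged to maker-000036F-snap-gene-5.43, a model of 578 nucleotides. For young replicates 1 to 4 its level was 0.355, 26.1, 0.620 and 24.5 CPM, and for old reproducing replicates 1 to 4 it was 7.85, 1.19, 11.02 and 0.499 CPM. For old non-reproducing replicates 1 to 4 it was 0.257, 0, 0.0929 and 0.0438 CPM. The 4 libraries at 7.85 CPM or more stood clear of the rest, none of which exceeded 1.19 CPM, and both the young and the old reproducing group held high and low libraries. Its log2 change between old reproducing and young females was -1.36 (SE 1.24, adjusted p = 0.666 by edgeR).

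The next largest ratio, 32.3, was that of maker-000026F-augustus-gene-14.45, of 2430 nucleotides. Young replicates 1 to 4 had 1.24, 138, 4.79 and 93.5 CPM. Old reproducing replicates 1 to 4 had 11.6, 3.96, 9.59 and 0.562 CPM, and their old non-reproducing counterparts 0.514, 1.77, 2.37 and 0.438 CPM. Young replicates 2 and 4 stood far above every other library, none of which exceeded 11.6 CPM. This member also had the lowest log2 change between old reproducing and young females, -3.22 (SE 1.29, adjusted p = 0.318 by edgeR), which did not pass the threshold. The member with the third largest ratio, 21.3, reached 48.5 CPM in young replicate 2, 17.4 CPM in young replicate 4, 4.55 CPM in old reproducing replicate 1 and 8.03 CPM in old reproducing replicate 3, with 0.300 to 2.07 CPM elsewhere.

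The most abundant member was maker-000020F-snap-gene-24.77, a model of 312 nucleotides with a mean of 264 CPM, or 846 RPKM (CPM per kilobase of the model, which allows levels to be compared between genes). Young replicates 1 to 4 had 210, 417, 247 and 278 CPM, old reproducing replicates 1 to 4 had 602, 150, 320 and 249 CPM, and old non-reproducing replicates 1 to 4 had 205, 278, 62.04 and 148 CPM. Its highest library was old reproducing replicate 1, and young replicate 4 and old non-reproducing replicate 2 were all but equal, so its membership rests on that near tie. The next most abundant member averaged 139 CPM, at 128, 810, 46.0 and 135 CPM for young replicates 1 to 4, and its high and low libraries were separated by 135 against 128 CPM. The member ranked after it averaged 126 CPM, with 497 CPM in young replicate 2, 260 CPM in young replicate 4, 150 CPM in old reproducing replicate 1 and 230 CPM in old reproducing replicate 3, and 4.78 to 128 CPM in the other 8.

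Most members were of low abundance. Their mean level had a median of 9.69 CPM (interquartile range 6.80 to 15.2), against 37.0 CPM over the 6512 genes. Per length the median was 3.96 RPKM against 15.6 RPKM. Means were under 10 CPM in 113 members and over 50 CPM in 6. The share of genes that showed the pattern fell with abundance, from 10.4% (113 of 1086) at 5 to 10 CPM and 5.94% (64 of 1077) at 10 to 20 CPM to 2.00% (33 of 1650) at 20 to 50 CPM. At 50 to 100 CPM it was 0.279% (3 of 1076), and at 100 CPM or more 0.185% (3 of 1623). Below the abundance limit, 498 of 2845 genes of 1 to 5 CPM (17.5%) met the other 2 conditions. The median ratio did not fall in the same way, and was 4.25, 5.03 and 5.27 in the first 3 classes of members.

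**Figure D4:**
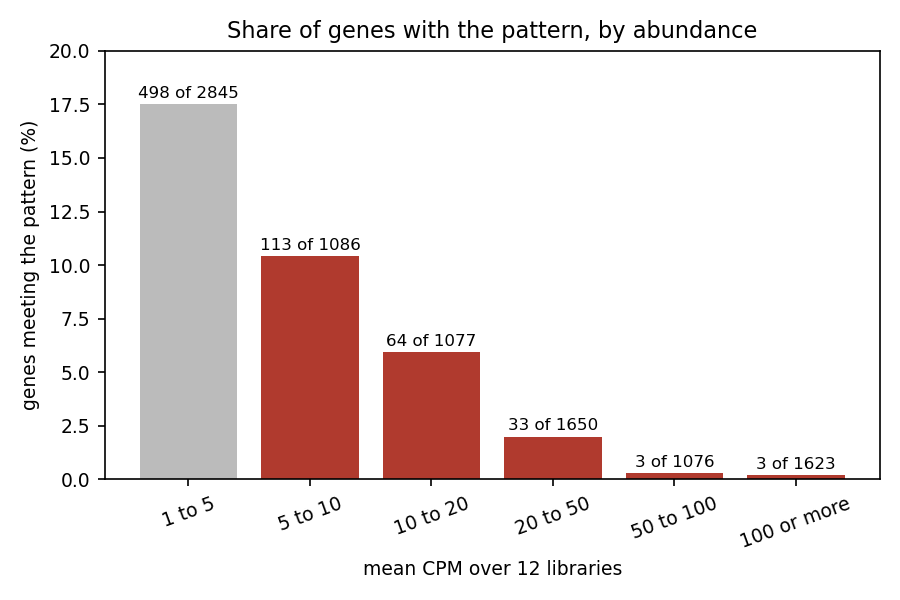
Percentage of genes that are separated in the 4 libraries with a ratio of at least 1.5, by mean CPM over the 12 libraries; red bars are the classes that hold the 216 members, the grey bar the class below the abundance limit. The share falls from 17.5% at 1 to 5 CPM to 0.185% at 100 CPM or more.

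The opposite pattern was almost absent at this abundance. Lower in each of the 4 libraries than in all other 8, with a mean over the 8 at least 1.5 times that over the 4, was 1 gene. It had 137 to 225 CPM in the 4 libraries, against 287 to 1198 CPM in the other libraries. Under TMM scaling, a scaling of library sizes by the bulk of genes, the opposite pattern was met by 7 genes and the pattern of the members by 182, 178 of them among the 216.

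The members were spread over the genome assembly. They lay on 47 of the 121 contigs that hold genes of at least 5 CPM. On the 31 contigs with 50 or more such genes, the share of members ran from 0 to 8.33%, with a median of 3.23%, against 3.32% over all contigs. Contig 000001F held the most members, 16 of 423 genes, and contig 000011F held 14 of 284. The first number in an identifier groups models along a contig, and 52 members fell into 24 groups with at least 2 members. In the group numbered 29 on contig 000008F, 5 of 16 genes were members. One of them, maker-000008F-augustus-gene-29.120, stood at 3.07, 96.6, 4.96 and 25.6 CPM for young replicates 1 to 4. For old reproducing replicates 1 to 4 it stood at 11.1, 4.51, 6.74 and 1.69 CPM, and for old non-reproducing replicates 1 to 4 at 1.16, 2.22, 5.53 and 0.482 CPM. Young replicate 2 was the highest library in this member, followed by young replicate 4. From young to old reproducing females it had a log2 change of -2.47, the lowest but 1 of the members (edgeR SE 1.09, adjusted p = 0.373). Without young replicate 2 this change was -0.91. Whether models of this group are near-identical copies that share reads was not tested.

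Gene models of members were spread more widely in length. The median was 2767 nucleotides in members and 2622 in the 6512 genes, and the interquartile range was 1328 to 5255 against 1484 to 4319. Models under 1000 nucleotides made up 19.4% of members against 13.5% of the 6512 genes, and those of 3000 nucleotides or more 47.7% against 43.1%. Lengths of 1000 to 2000 nucleotides were found in 17.1% against 23.6%, and of 2000 to 3000 in 15.7% against 19.8%. Length differed with the ratio: models under 1000 nucleotides were 14 of the 24 members with a ratio of 10 or more (58.3%), 17 of 73 at 5 to 10, 9 of 75 at 3 to 5 and 2 of 44 below 3. The median length in these classes was 921.5, 2421, 3603 and 3927.5 nucleotides. The kinds of gene prediction were similar, with 58.8% of members and 56.0% of the 6512 genes in the most frequent kind.

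The labelled groups were compared by edgeR's quasi-likelihood test on the counts of all 10987 genes that passed a filter on low counts, with Benjamini-Hochberg adjustment over all of them. Calls are genes with an adjusted p under 0.05. All 216 members passed the filter, which their levels in the 4 libraries alone would secure. The comparison of old reproducing with young females is the one in which the rule fixes no direction, since it takes 2 high and 2 low libraries from either group. It does select genes that vary within both groups, and the standard error of the log2 change was 0.63 in the median member against 0.32 over all genes.

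Between old reproducing and young females, 0 of 216 members were called by edgeR, against 2.8% of all genes tested called higher and 0.0728% called lower in old reproducing females. DESeq2 also called 0 members, and limma on log2 RPKM called 0. The fitted change was negative in 212 of 216 members, against 53.8% of all genes tested. Its median was -1.16 (interquartile range -1.41 to -0.76) against -0.03 over all genes. The members share the same libraries, so their changes are not independent of each other. At an unadjusted p under 0.05, 55 members (25.5%) were lower and 0 higher in old reproducing females, against 4.27% and 8.88% of all genes. These values varied with the fit and with single libraries. Without young replicate 2 the median over members was -0.38, and on the scale of log2(RPKM + 1) in limma it was -0.55. The count of members at an unadjusted p under 0.05 was 0 without young replicate 2, 9 without young replicate 4, 3 without old reproducing replicate 2 and 2 without old reproducing replicate 4. It was 30 without old reproducing replicate 1, 115 without young replicate 1 and 147 without young replicate 3. DESeq2 gave 107, a fit to the 8 libraries compared gave 7, and limma gave 0 on both log2 RPKM scales. Leaving out single old non-reproducing libraries gave 36 to 45. The smallest adjusted p of a member by edgeR was 0.205. A lack of overlap, seen in 0.592% of all genes in the lower and 9.3% in the higher direction, is not possible in a member, since the rule makes 2 libraries of each group exceed 2 of the other.

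The change was positive in 4 members. The highest, 0.96 (SE 0.71, adjusted p = 0.592 by edgeR), was that of a model at 5.91, 23.3, 2.20 and 20.9 CPM for young replicates 1 to 4 and 44.1, 13.3, 41.0 and 6.99 CPM for old reproducing replicates 1 to 4. In this member old reproducing replicates 1 and 3 lay above all young libraries. In the next, 2 young libraries at 50.2 and 55.7 CPM compared with 2 old reproducing ones at 79.5 and 63.6 CPM (log2 change 0.35, SE 0.43, adjusted p = 0.761 by edgeR). The most abundant member followed, at 0.10 (SE 0.44, adjusted p = 0.941 by edgeR). None of these differences passed the threshold, and the latter 2 members had changes of -0.03 and -0.42 without old reproducing replicate 1. At the other end, the third lowest change, -2.45 (SE 1.10, adjusted p = 0.376 by edgeR), came from a member with 53.2 CPM in young replicate 2 and at most 5.57 CPM in any other library.

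**Figure D5:**
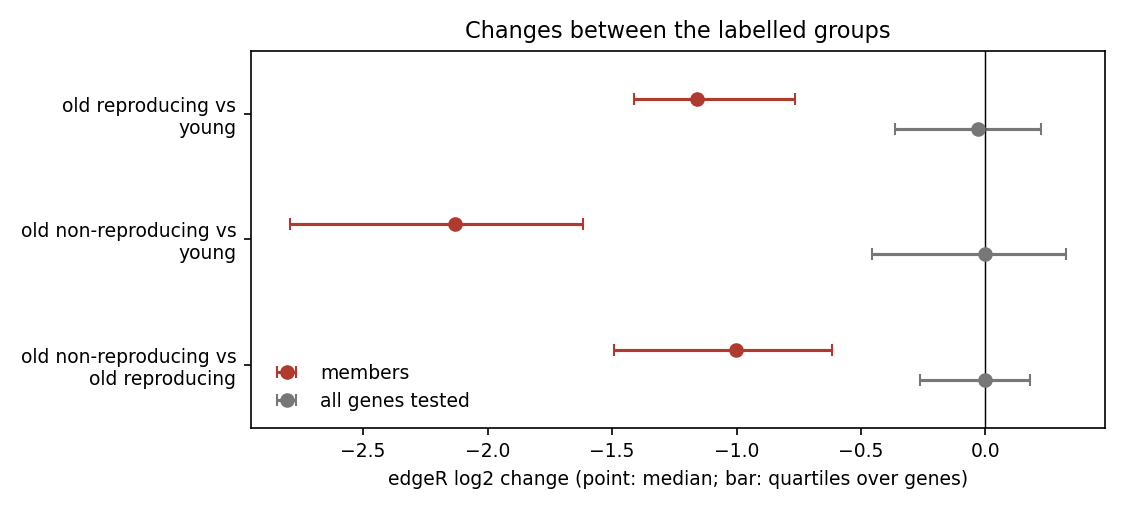
Fitted log2 change between the labelled groups, as the median (point) and quartiles (bar) over the 216 members (red) and all 10987 genes tested (grey). The medians of the members are -1.16, -2.13 and -1.001 from top to bottom, but the rule placed all old non-reproducing libraries low, so the lower 2 contrasts are set in part by the choice of members.

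The other 2 comparisons were used by the rule, which puts every old non-reproducing library on the low side, and nothing is read from their counts. Against young, 104 of 216 members were called lower in old non-reproducing females by edgeR, where 4.26% of all genes tested were called lower, and 0 were called higher, where 7.73% were. The libraries did not overlap in 61 members, with old non-reproducing lower, against 3.25% of all genes, and in 0 with them higher, against 8.58%. The median change was -2.13 over members and -0.002 over all genes, and all 216 members had a negative change, against 50.2% of all genes. The count of called members moved with single libraries: it was 4 without old non-reproducing replicate 4, 10 without replicate 2, 23 without replicate 3 and 25 without replicate 1 of that group. It was 10 without young replicate 2, 12 without young replicate 4, 160 without young replicate 1 and 176 without young replicate 3. Leaving out old reproducing replicates 1, 2, 3 or 4, which enter this comparison through the filter, the scaling and the estimate of the spread, gave 48, 46, 59 and 116.

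Between old non-reproducing and old reproducing females, 0 members were called by edgeR, as were 0% of all genes in either direction. At an unadjusted p under 0.05, 41 members were lower and 0 higher in old non-reproducing females, against 2.95% and 5.12% of all genes. The rule places these libraries low in every member, so nothing is read from this direction. DESeq2 called 5 members lower and limma on log2 RPKM called 0. The libraries did not overlap in 36 members, with old non-reproducing lower, against 3.05% of all genes, and in 0 with them higher, against 1.38%. The median change was -1.001 over members and -0.003 over all genes. The comparisons share libraries in pairs, so their changes are not independent of each other.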

How the data were processed

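Raw read counts, whole numbers per gene model for 12 libraries, were deposited by the authors, as were RPKM values, per the file headers. RPKM recomputed from the counts matched to within 1.26e-06 percent and were missing for 1 gene. The library kit was NEBNext Ultra II Directional, per the labels' protocols. STAR and SAMtools are named in the submitters' processing notes. The build, the counting program and the strand setting are not given in the sources used here, so reads of overlapping models may be shared.

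No 2 libraries of a group were the same within sampling noise (lowest chi-square per degree of freedom 83.4 over 18 pairs), and each counted as 1 sample. Tests used edgeR 4.0.16 in R 4.3.3: filterByExpr, TMM factors, a robust quasi-likelihood fit with 1 mean per group over all 12 libraries, two-sided tests and Benjamini-Hochberg adjustment. SE is the absolute log2 change over the square root of F. Alternatives were DESeq2 1.42.0, limma 3.58.1 on log2(RPKM + 1) and log2(RPKM + 0.1), other scalings, no filter, 8 libraries only, a replicate block and leaving out each library. The code was tested on simulated data. Members, limits and libraries were chosen with earlier results of these data known. Described singly are the 3 members with the largest ratio, the 3 most abundant, the 3 highest and 3 lowest between old reproducing and young, and the genes nearest to the limits.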

Additional observations from a re-analysis of the deposited data

Results flagged for a closer look

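Within each group of 4 libraries, the highest and the lowest library were compared with the nearest other one, as the gap over the whole range, for the summed level and for the genes described singly. A library lay past the 95% limit of 0.829 in 2 of 51 groups of values. For unselected, independent values chance passes it in about 1 of 20 groups, which would be 2.55 here. That rate does not hold for these values, since the rule sets high and low libraries within the young and old reproducing groups and the values share libraries. No conclusion about chance is drawn. Both were young replicate 2. The member with the second highest mean had 810 CPM there against 46.0 to 135 CPM in the other young libraries (gap over range 0.884). The member with the third lowest change between old reproducing and young females had 53.2 CPM there against 2.08 to 5.57 CPM (0.932). The summed level of the members, 12985 CPM in that library, was not past the limit.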

How the results depend on the processing

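The size of the group followed its abundance limit, with 714 genes at a mean of at least 1 CPM and 103 at 10 CPM. A ratio limit of 2 gave 201, no ratio limit 220 and TMM scaling 182. Applied without 1 library at a time the rule gave 166 to 293 genes, the fewest without young replicate 2, of which 158 were among the 216, and the most without old reproducing replicate 1. The opposite pattern rose from 1 to 7 genes with TMM scaling. The rule selects genes that vary within both the young and the old reproducing group, which makes a call between these groups unlikely under any setting. Between old reproducing and young females the count of called members was 0 under all 20 alternatives run. Between old non-reproducing and young females it was 104, and 180 with DESeq2, 23 without the filter, 8 when only the 8 libraries compared were fitted, 3 with limma on log2(RPKM + 1), 8 with limma on log2(RPKM + 0.1) and 4 to 176 without 1 library; the cause was not tested. Between the old groups it was 0, and 5 with DESeq2 and 0 to 1 without 1 library. With replicate number as a block, 0, 4 and 0 members were called in these comparisons, and 1 in place of 55 members had an unadjusted p under 0.05 between old reproducing and young females. Same-numbered libraries of 2 groups had correlations of their deviations from -0.46 to 0.36, over 0.1 in 3 of 12 pairs. In 2 of these 12 comparisons a library correlated best with its own number in the other group. These values showed little sign of pairing by number, but low correlations cannot show that the samples were unpaired. The scale log2(RPKM + 0.1) moved the median change of all genes between old reproducing and young from -0.03 to 0.11, and that of the members to -0.66. Counting error was not estimated for each member. It may matter for which genes are members, since the margin between the 4 libraries and the other 8 was 1.34-fold in the median member.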

Other observations

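A few members were nearly without reads in most old non-reproducing libraries, by a limit chosen after the values were seen and not counted over all genes. In 5 members the level was under 0.5 CPM in each of old non-reproducing replicates 2, 3 and 4. Among these was a model of 1808 nucleotides with 152 CPM in young replicate 2, 39.5 CPM in young replicate 4, 32.9 CPM in old reproducing replicate 1 and 47.6 CPM in old reproducing replicate 3. Its level was 22.1 CPM in old reproducing replicate 2 and 8.96 CPM in old non-reproducing replicate 1, against 1.56 CPM in old reproducing replicate 4 and at most 0.263 CPM in old non-reproducing replicates 2 to 4. In this member the level of old non-reproducing replicate 1 thus differed from that of its 3 group mates. The remaining 4 were models of 519 to 801 nucleotides, and their levels in old non-reproducing replicate 1 were 0.214 to 2.19 CPM. They were also low in a library of reproducing females, at 0.312 to 0.624 CPM in old reproducing replicate 4. Near absence was thus not limited to old non-reproducing libraries.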
